A study of Mus musculus with 6 samples.

Results

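The Sox genes described here encode transcription factors that share a DNA-binding domain, the HMG box. The set was named by symbol, as *Sox4*, *Sox5*, *Sox6*, *Sox7*, *Sox8*, *Sox9*, *Sox11*, *Sox12*, *Sox13* and *Sox18*, and it was chosen by a measured value, since *Sox6* had a higher signal in Sirt6mKO than in control libraries. Of these 10 genes, 9 were found among the 25166 genes of the table, and *Sox18* was not analysed here. All 9 had a mean signal of at least 5 over the 6 libraries and so were among the 14227 genes that entered the fit. Since the comparison of Sirt6mKO with control chose the set, the values of its members in that comparison are given as a description and without a test.

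RNA was sequenced from muscle stem cells (MuSCs), the PAX7-positive cells beneath the basal lamina of myofibers, with 3 Sirt6mKO and 3 control samples. In Sirt6mKO mice, Cre recombinase under the Pax7 promoter removes the floxed exons 4 to 6 of *Sirt6*, which encodes a histone deacetylase. This Cre is constitutively active, so descendants of Pax7-expressing cells, myofibers among them, also carry the deletion. The labels call the control mice wild type C57BL/6, whereas the legends describe them as Cre-negative littermates with floxed *Sirt6* alleles, and in either case the Cre allele and the loss of *Sirt6* cannot be told apart. The mice were males of 12 weeks, an age given for the set of experiments and not in the labels. Each library was made from 100 to 200 freshly isolated cells, sorted as Integrin-a7 and CD34 positive and Sca1, CD45 and CD31 negative, or by a fluorescent reporter.

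SOX proteins bind the minor groove of DNA through the HMG box, bend it, and act together with partner factors that differ between cell types. Members are sorted into subgroups by the similarity of the box. SoxD factors (*Sox5*, *Sox6*, *Sox13*) lack a known activation domain of their own and recruit co-regulators, and in muscle SOX6 is known for repressing slow fibre genes. SoxE factors (*Sox8*, *Sox9*) carry activation domains. SOX9 drives cartilage formation together with SOX5 and SOX6, and SOX8 has been described in satellite cells as a brake on differentiation. SoxC factors (*Sox4*, *Sox11*, *Sox12*) are known from progenitor cells, and the SoxF factor *Sox7* from endothelium.

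The start of the coding sequence of the HMG box shows how closely the members are related, and is given for the SoxD genes and for both SoxE genes. The first 60 of 237 compared bases are printed 5′ to 3′ on the coding strand, from GENCODE transcripts of GRCm38, with capitals for every base that differs from *Sox6*.
Sox6: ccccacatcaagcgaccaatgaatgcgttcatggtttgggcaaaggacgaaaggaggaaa
Sox5: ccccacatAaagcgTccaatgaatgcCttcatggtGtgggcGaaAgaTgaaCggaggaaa
Sox13: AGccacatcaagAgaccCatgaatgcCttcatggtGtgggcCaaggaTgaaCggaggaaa
Sox8: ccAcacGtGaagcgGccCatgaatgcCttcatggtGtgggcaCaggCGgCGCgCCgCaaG
Sox9: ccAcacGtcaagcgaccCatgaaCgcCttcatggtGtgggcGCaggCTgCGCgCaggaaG

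Over the 237 bases, *Sox5* was identical to *Sox6* at 82.7% of positions and *Sox13* at 81.4%, whereas *Sox8*, the least similar member, was identical at 53.2%. *Sox8* and *Sox9* were identical to each other at 85.2%. The 7 pairs within a subgroup ranged from 81.4 to 89.5% and the other 29 pairs from 53.2 to 73.8%. Shared bases matter for counting only where a whole read fits 2 genes. No pair of members shared a word of 75 bases, the read length, or of 50 bases in any annotated transcript, and *Sox4* and *Sox11* were the 1 pair of 36 that shared words of 40 bases.

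Values are given as signals, that is, as reads on a gene scaled by 1 factor per library to a common depth and rounded. Between 1267027 and 3209958 reads on genes lay behind a library, and 1 read stood for a signal of 0.729 in control 2 and 1.79 in control 3. *Sirt6* itself had signals of 19, 20 and 13 in the Sirt6mKO libraries and 18, 17 and 20 in the controls, a value over the whole gene that does not separate the deleted exons from the rest. MuSC markers were present in every library, with *Pax7* between 1810 and 4066 and *Myf5* between 850 and 1074. Markers of other cell types were read as 6 lists, and their summed signals are given after the members. Libraries of the same group correlated at 0.952 to 0.975 and libraries of different groups at 0.930 to 0.951 (Pearson, log2 scale).

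*Sox6* (ENSMUSG00000051910) spans 567925 bases on the minus strand of chromosome 7 (GRCm38, chr7:115470872-116038796), with 14832 exonic bases in 25 blocks, none of which is shared with another annotated gene. Its signal was 129, 213 and 175 in Sirt6mKO MuSCs and 77, 57 and 65 in control MuSCs. All 3 Sirt6mKO libraries lay above all 3 controls, with Sirt6mKO 1 the lowest of them and Sirt6mKO 2 the highest. The means were 172 ± 42.1 and 66.3 ± 10.1 (SD, n = 3), so *Sox6* was 2.60-fold higher in Sirt6mKO cells. On the log2(signal + 1) scale the difference was 1.35 (SE 0.19). It ranged from 1.18 without Sirt6mKO 2 to 1.54 without Sirt6mKO 1.

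**Figure D1:**
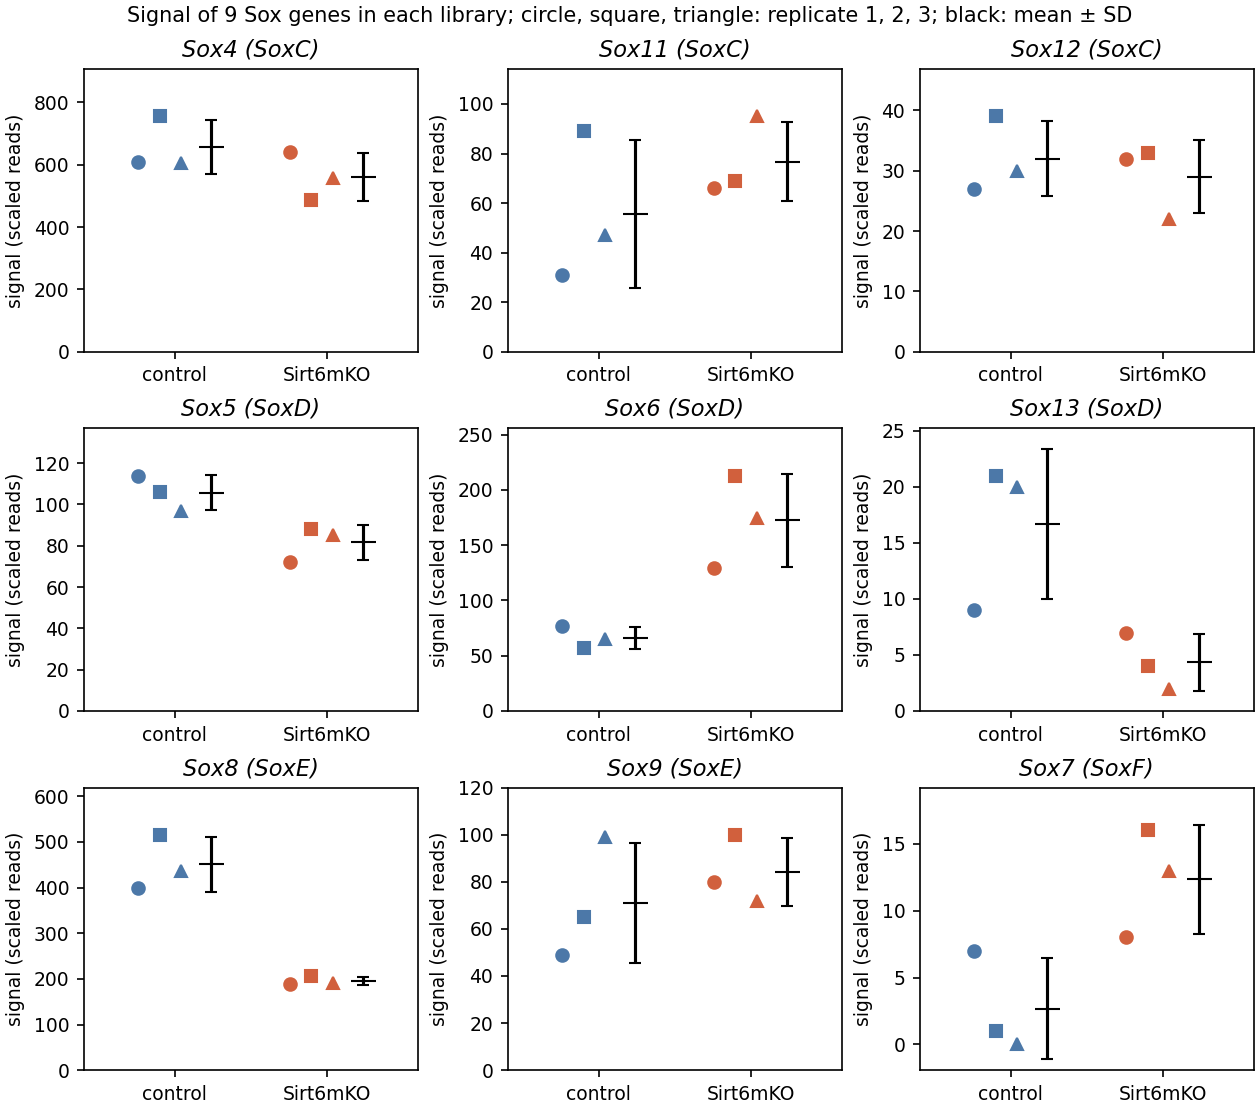
Signal (reads scaled to a common depth) of the 9 Sox genes in the 3 control and 3 Sirt6mKO libraries, each panel with its own linear axis. Circles, squares and triangles are replicates 1, 2 and 3, and black marks are the mean ± SD. *Sox6* lies between 129 and 213 in Sirt6mKO and between 57 and 77 in control libraries, and *Sox8* between 189 and 206 and between 400 and 516.

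*Sox5*, the SoxD gene closest to *Sox6* in sequence, went the other way. Sirt6mKO libraries had signals of 72, 88 and 85 and control libraries of 114, 106 and 97, with no overlap between groups. The log2 difference was −0.37 (SE 0.15), far below a 2-fold change, and it stayed between −0.43 and −0.28 when any 1 library was left out. *Sox5* lies at chr6:143828425-144781977 on the minus strand, and 1330 of its exonic bases overlap *Sox5os1* on the other strand. How the counting treated strand is not given in the sources used here. Reads of the antisense gene could be part of these values, or reads in the overlap could have been left out as reads on several genes. The same limit holds for the overlaps of *Sox4* and *Sox8* given below. None of the overlapping genes is named among the genes of the table, so their own signals are not known.

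*Sox13* was the weakest SoxD gene and is known from several developing tissues and from T cells. It had signals of 7, 4 and 2 in Sirt6mKO and 9, 21 and 20 in control libraries, which stand for 8, 5 and 2 reads and for 7, 29 and 11 reads. The groups did not overlap in signal, but Sirt6mKO 1 and control 1 were only 2 apart. The log2 difference was −1.76 (SE 0.48), −2.12 without control 1, and −1.20 with a pseudocount of 5 in place of 1.

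The balance of *Sox6* and *Sox5* differed between the groups without overlap. The higher *Sox6* signal, which chose the set, is part of this ratio, so the ratio is a description only. Per kilobase of exon, *Sox6* stood at 1.74, 2.35 and 2.0 times *Sox5* in Sirt6mKO MuSCs and at 0.655, 0.521 and 0.650 times in controls. The summed SoxD level per kilobase was 15.3, 21.4 and 18.2 in Sirt6mKO and 15.2, 16.1 and 15.8 in control libraries. The sums overlapped, so the subgroup as a whole did not separate the groups as *Sox6* alone did.

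*Sox8* (ENSMUSG00000024176) showed the clearest difference in the opposite direction. The gene covers chr17:25565892-25570686 on the minus strand, with 3118 exonic bases, 329 of which are also exonic in *2810468N07Rik* on the other strand. Its signal was 189, 206 and 192 in Sirt6mKO MuSCs and 400, 516 and 436 in control MuSCs. The 3 Sirt6mKO libraries were close to each other, and all lay well below the lowest control. Means of 196 ± 9.07 and 451 ± 59.4 (SD, n = 3) put the controls 2.30-fold higher, with a log2 difference of −1.19 (SE 0.12). Leaving out 1 library gave −1.27 to −1.09. In sorted cells measured in bulk, fewer cells that express a gene and less RNA of it per cell cannot be told apart, and this holds for every gene here.

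*Sox8* was also set against genes of the stem cell itself. *Pax7*, the defining factor of MuSCs and the source of the Cre promoter, fell in Sirt6mKO cells at the adjusted p but short of 2-fold (log2 difference −0.84, SE 0.13, limma-trend adjusted p = 0.0041). As a share of *Pax7* signal, *Sox8* was at 10.3, 8.93 and 10.6% in Sirt6mKO and 9.84, 15.0 and 13.8% in control libraries, and these overlapped. As a share of *Myf5*, whose log2 difference was −0.03 (SE 0.11, adjusted p = 0.92), it was at 18.7, 24.2 and 20.0% against 44.6, 48.0 and 47.3%, with no overlap. The choice of reference gene thus decided whether the *Sox8* share separated the groups.

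*Sox9*, the other SoxE gene, did not follow *Sox8*. It had signals of 80, 100 and 72 in Sirt6mKO and 49, 65 and 99 in control libraries, and control 3 lay within the Sirt6mKO range. The log2 difference was 0.29 (SE 0.24) and moved between 0.05 and 0.55 as 1 library was left out. Per kilobase, *Sox8* stood at 3.13, 2.73 and 3.54 times *Sox9* in Sirt6mKO and at 10.8, 10.5 and 5.84 times in controls. The SoxE sum per kilobase did separate the groups, with 80.0, 90.3 and 79.0 in Sirt6mKO against 140, 181 and 164 in controls, as *Sox8* made up most of it.

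Among the SoxC genes no member separated the groups. *Sox4*, by far the most abundant of them, had signals of 641, 488 and 556 in Sirt6mKO and 609, 755 and 604 in control libraries, with a log2 difference of −0.22 (SE 0.13). Of the 4795 exonic bases of *Sox4*, 2616 overlap *Gm26735* on the other strand. *Sox11* was the most variable, at 66, 69 and 95 against 31, 89 and 47, and its log2 difference of 0.57 (SE 0.31) ranged from 0.22 to 0.97 with 1 library left out. *Sox12*, at 32, 33 and 22 against 27, 39 and 30, was at −0.14 (SE 0.26). Its difference was above 0 without Sirt6mKO 3 or without control 2, so no direction can be given.

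*Sox7*, the SoxF gene, was near the detection limit. Its signals of 8, 16 and 13 in Sirt6mKO and 7, 1 and 0 in control libraries stand for 10, 21 and 14 reads and for 6, 1 and 0 reads. The 0 in control 3, the shallowest library, allows a signal of up to 5.38 (3 reads, counting error only). Groups did not overlap, though Sirt6mKO 1 was 1 above control 1. The log2 difference was 2.35 (SE 0.69) with a pseudocount of 1, 1.26 with 5 and 3.70 with 0.1.

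In the fit across all genes, a gene was called at an adjusted p of at most 0.05 and at least 2-fold. Of the 9 members, 2 were past both thresholds, *Sox6* higher and *Sox8* lower, where 2.59% of all genes tested were called. The groups did not overlap for 5 members, *Sox6* and *Sox7* higher and *Sox5*, *Sox8* and *Sox13* lower, where 21.2% of all genes tested did not overlap. The value of *Sox6* in this comparison chose the set, so nothing is read from these shares. The median log2 difference of the members was −0.14, with 4 above 0 and 5 below, and the median of all genes tested was 0.00.

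**Figure D2:**
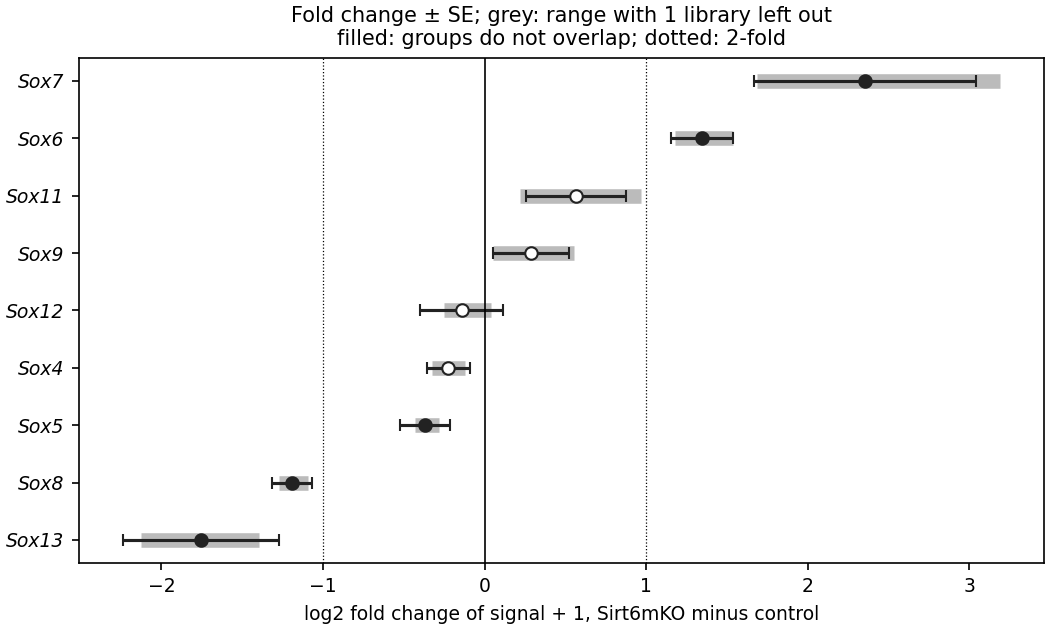
Log2 difference of signal + 1, Sirt6mKO minus control, for the 9 Sox genes, with bars for ± 1 SE (n = 3 and 3), grey bands for the range with 1 library left out, and dotted lines at 2-fold. Filled points are genes whose groups do not overlap. The grey bands of *Sox6* (at 1.35), *Sox7* (2.35), *Sox8* (−1.19) and *Sox13* (−1.76) lie wholly beyond 2-fold, and *Sox7* and *Sox13* have the widest errors.

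Levels of different genes were compared per kilobase of exon. In control MuSCs, *Sox8* (145 ± 19.0) and *Sox4* (137 ± 17.9) led and did not differ beyond their spread, and they exceeded 97.5 and 97.3% of protein-coding genes. *Sox9* followed at 17.2 ± 6.18, apart from both neighbours. *Sox5* (7.35 ± 0.592), *Sox12* (7.19 ± 1.40), *Sox11* (6.70 ± 3.60), *Sox6* (4.47 ± 0.679) and *Sox13* (3.87 ± 1.54) formed a run in which each overlapped the next. *Sox7* had the lowest mean at 0.808 ± 1.15 (SD, n = 3) and overlapped *Sox13*.

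In Sirt6mKO MuSCs the order changed at several places. *Sox4* (117 ± 16.0) now stood above *Sox8* (62.8 ± 2.91) without overlap, and *Sox6* (11.6 ± 2.84) had passed *Sox5*, *Sox12* and *Sox11* and stood behind *Sox9* (20.3 ± 3.49) and overlapping *Sox11* (9.22 ± 1.92). *Sox12* (6.51 ± 1.37) and *Sox5* (5.68 ± 0.592) overlapped, and *Sox7* (3.74 ± 1.23) and *Sox13* (1.00 ± 0.584) closed the order, each apart from its neighbours. In Sirt6mKO cells *Sox8* was 6.97, 4.60 and 5.22 times *Sox6* per kilobase, and in control cells 24.7, 43.1 and 31.9 times.

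**Figure D3:**
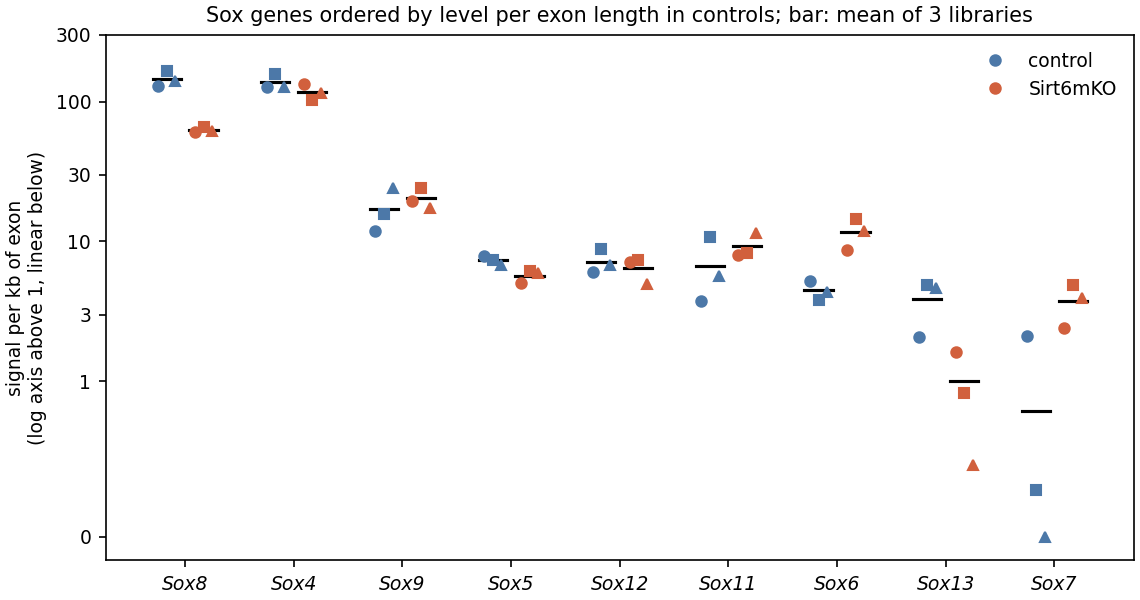
Signal per kilobase of exon of each Sox gene in control (blue) and Sirt6mKO (red) libraries, ordered by the control mean, on a log axis above 1 and a linear one below. Points are single libraries with the replicate shapes circle, square and triangle for 1, 2 and 3, and bars are means of 3. *Sox8* and *Sox4* stand above the others in both groups, at control means of 145 and 137.

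Seen as a whole, the members summed to 247, 234 and 233 per kilobase in Sirt6mKO and 294, 375 and 318 in control libraries, without overlap. SoxE genes held 34.9 ± 3.21% of this sum in Sirt6mKO and 49.2 ± 2.06% in control MuSCs, and SoxC genes 55.8 ± 5.14% and 45.8 ± 1.97% (SD, n = 3). The SoxC sum itself overlapped between groups, at 149, 117 and 132 against 137, 177 and 138. The share of *Sox8* alone was 26.4 ± 1.82% against 43.9 ± 0.301%, and that of *Sox6* 4.91 ± 1.31% against 1.39 ± 0.369%. Shares sum to a whole, so a lower share of 1 gene raises the others.

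**Figure D4:**
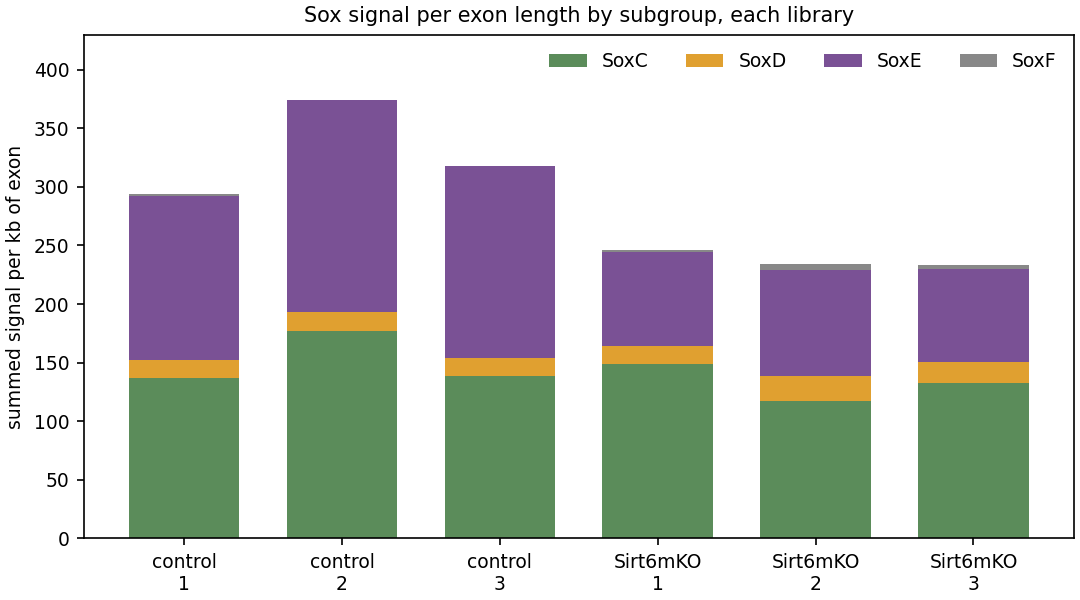
Summed signal per kilobase of exon of the 9 Sox genes in each library, stacked by subgroup on a linear axis from 0. The SoxE section spans 79.0 to 90.3 in the Sirt6mKO libraries and 140 to 181 in the controls, whereas the SoxC and SoxD sections overlap between groups.

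Genes known to act upstream of or together with SOX6 were read next. The list held 17 genes, of which 16 were tested and 0 passed both thresholds by limma-trend, with 6 at an unadjusted p under 0.05, and 0 by limma voom on recovered reads. *Prox1*, a homeobox factor of muscle, was at 1031, 1277 and 1211 in Sirt6mKO and 1170, 1121 and 1239 in control libraries (log2 difference −0.01, SE 0.11). *Nfix*, a factor that acts on *Sox6* in developing muscle, differed by 0.12 (SE 0.16), and *Ctnnb1*, which encodes β-catenin, by −0.14 (SE 0.13). *Myod1*, the myogenic determination factor, was the 1 gene of the list at the adjusted p alone, with 79, 80 and 75 in Sirt6mKO and 93, 184 and 169 in control libraries (−0.86, SE 0.22, adjusted p = 0.045). At the adjusted p alone, 4.52% of all genes tested were called, 2.64% higher and 1.88% lower. The median of the tested list genes was −0.05.

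Slow fibre genes, which SOX6 is known to repress in muscle fibres, were mostly at low signal in both groups. Of 10 listed genes, 4 were abundant enough for the fit, and 0 passed both thresholds by limma-trend (1 at an unadjusted p under 0.05) or by voom. *Myh7*, the slow myosin heavy chain, was at 2, 5 and 4 in Sirt6mKO and 2, 6 and 2 in control libraries, too low for a test. *Atp2a2*, the slow and cardiac calcium pump, differed by −0.09 (SE 0.11), *Tpm3* by 0.09 (SE 0.12) and *Tnnt1*, the slow troponin T, by 0.50 (SE 0.20, adjusted p = 0.20).

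Some fast fibre genes and general myofiber markers were higher in Sirt6mKO libraries. Of 12 fast fibre genes tested, 2 rose past both thresholds and 0 fell, where 1.57% of all genes tested were called higher. These were *Mylpf*, a fast myosin light chain (2.15, SE 0.45, adjusted p = 0.018), and *Casq1*, the calsequestrin of fast fibres (1.43, SE 0.32, adjusted p = 0.024). Of the fast fibre genes tested, 11 were above 0 and 1 below, with a median log2 difference of 1.28. *Actn3*, the most abundant, was at 712, 628 and 580 against 326, 534 and 330 (0.72, SE 0.17, adjusted p = 0.033). *Myh1* differed by 0.08 (SE 0.22). Of 13 myofiber markers tested, 5 rose past both thresholds and 0 fell, and 8 were higher by the adjusted p without a fold. Among the 5 was *Actn2*, a protein of the Z-disc, at 52, 48 and 56 against 18, 12 and 14 (1.77, SE 0.25, adjusted p = 0.0017). In all, 12 of the tested markers were above 0 and 1 below. The latter was *Pygm*, at 250, 284 and 224 against 336, 387 and 287 (−0.41, SE 0.14, adjusted p = 0.13). *Mybpc1*, the most abundant of the list, differed by 0.16 (SE 0.14, adjusted p = 0.60). *Trdn* (2.80, SE 0.67, adjusted p = 0.033) and *Myoz1* (2.73, SE 0.53, adjusted p = 0.011) had the largest differences of that list, and the median over its tested genes was 1.71. *Trdn* was at 23, 19 and 6 against 4, 1 and 0, and *Myoz1* at 47, 45 and 11 against 4, 5 and 2. Their control values lay near the floor of 3 reads, a signal of 2.19 to 5.38, so the size of these 2 differences is uncertain. By voom, 1 fast fibre gene and 1 myofiber marker were called.

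The summed myofiber markers were at 3761, 4087 and 2579 in Sirt6mKO and between 1982 and 2235 in control libraries, and all 3 Sirt6mKO libraries were above the controls. Summed fast fibre genes were at 2183, 2164 and 1179 against 815 to 1133. Sirt6mKO 3 had the lowest of both sums in its group, each still above every control. Single genes of the lists differed in that library. *Ckm*, at 165, 186 and 27 against 31, 31 and 23, and *Tnni2*, at 149, 119 and 19 against 18, 36 and 20, were within the control range there. *Actn3*, at 580 against at most 534, and *Actn2*, at 56 against at most 18, were above every control. The *Sox6* signal of Sirt6mKO 3 was 175, against at most 77 in controls. Whether myofiber RNA has a part in the *Sox6* values was not tested.

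Other cell types known to use Sox factors were read in the same way. Tenocyte markers were at a summed signal of 60, 1085 and 412 in Sirt6mKO and 50 to 71 in control libraries, led by *Thbs4* (14, 508 and 191 against 15, 16 and 7) and *Fmod*, and 0 of 6 tested genes passed both thresholds by limma-trend (4 at an unadjusted p under 0.05) or by voom. Of the tested tenocyte genes, 5 were above 0 and 1 below, with a median log2 difference of 2.75. In Sirt6mKO 1 the tenocyte sum was within the control range, and *Sox6* was at 129 there. The cartilage list had 5 of 12 genes tested and 0 called by limma-trend (1 at an unadjusted p under 0.05) or by voom, with *Col11a1* at 2, 40 and 23 against 1, 1 and 0 (3.18, SE 0.83, adjusted p = 0.050, just above the threshold). It was the 1 tested cartilage gene whose groups did not overlap. All 5 tested cartilage genes were above 0, with a median log2 difference of 0.98. *Col2a1* was at 0, 22 and 9 against 0, 5 and 4 and *Acan* at 0, 4 and 0 against 0, 1 and 0. Sirt6mKO 2, the library with the most *Sox6* and *Sox9* of its group, also had the highest tenocyte and cartilage sums, whose part in these values was not tested.

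Fibroblast markers had 2 of 7 tested genes past both thresholds and higher, *Pdgfra* (2.16, SE 0.50, adjusted p = 0.027) and *Col1a1* (1.94, SE 0.50, adjusted p = 0.047), where 1.57% of all genes tested were called higher. All 7 tested genes had a log2 difference above 0, with a median of 1.33, and voom called 2. Their summed signal overlapped, with 12038 to 13567 in Sirt6mKO and 8808 to 13217 in control libraries, and *Col3a1*, the most abundant, differed by 0.06 (SE 0.16). *Col1a1* did not separate the groups, with 487 in control 1.

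Schwann cells, a known site of SoxE expression, had 7 of 10 listed genes tested and 0 called by limma-trend (2 at an unadjusted p under 0.05) or by voom, with a summed signal of 763 to 890 against 656 to 846. *Pmp22* made up most of it and differed by −0.00 (SE 0.11), *Scn7a* by 1.43 (SE 0.47, adjusted p = 0.12), and the defining factor *Sox10* was at 1, 1 and 4 against 2, 1 and 2. Endothelial markers, read beside *Sox7*, summed to 390 to 464 in Sirt6mKO and 477 to 582 in control libraries, of which *Tek* was the main part, and 0 of 3 tested passed both thresholds by limma-trend (1 at an unadjusted p under 0.05) or by voom. *Pecam1* was at 22, 27 and 24 against 11, 4 and 29 (1.05, SE 0.51, adjusted p = 0.30), *Vwf* at 17, 13 and 8 against 10, 6 and 7 (0.63, SE 0.40), and *Tek* differed by −0.35 (SE 0.13). The defining *Cdh5* was at 1, 7 and 3 against 1, 2 and 5, *Kdr* at 1, 4 and 2 against 0, 3 and 4, and *Cldn5* at 0 in every library but control 2. Of 6 immune markers, 1 was tested, *Cd68* (0.21, SE 0.28).

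**Figure D5:**
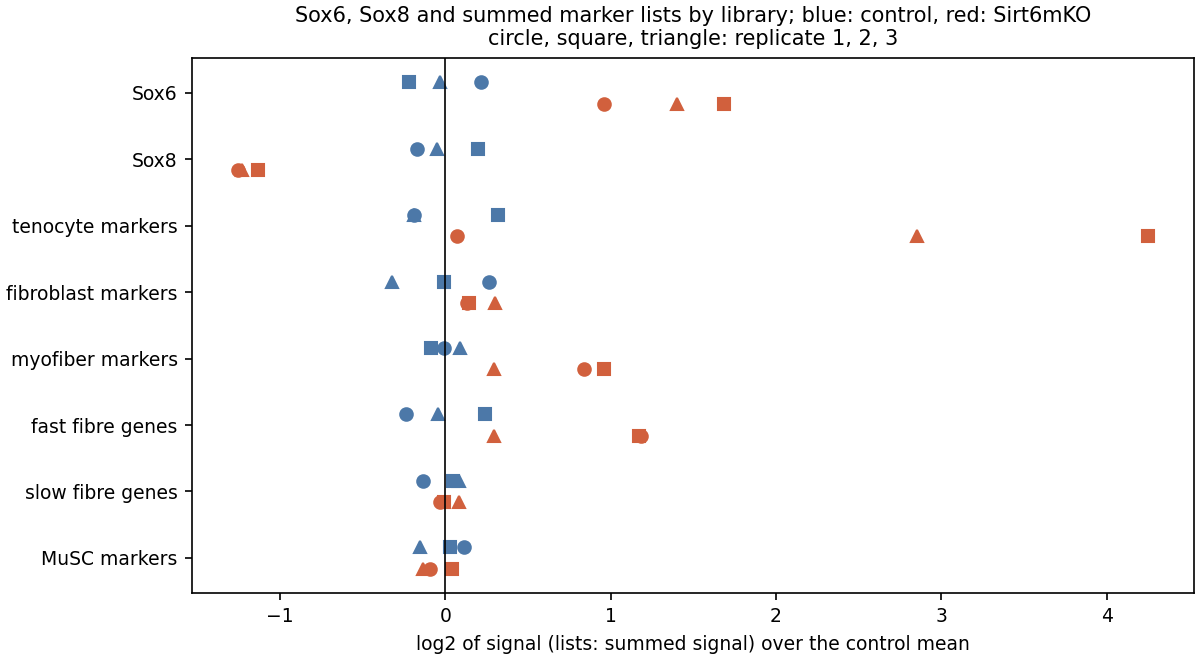
Log2 of the signal over the control mean for *Sox6* and *Sox8*, and of the summed signal for 6 gene lists, in each control (blue) and Sirt6mKO (red) library. Circles, squares and triangles are replicates 1, 2 and 3. In Sirt6mKO 1, 2 and 3 the *Sox6* signal is 129, 213 and 175 and the tenocyte sum 60, 1085 and 412. The tenocyte, fibroblast, slow fibre and MuSC sums overlap between groups, and the myofiber and fast fibre sums do not.

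Genes of the MuSC state did not move as 1 group. Of 12 markers tested, 1 passed both thresholds, *Chrdl2*, a secreted BMP antagonist, which fell (500, 453 and 326 against 943, 1019 and 767, −1.10, SE 0.16, adjusted p = 0.0021), where 1.02% of all genes tested were called lower. *Notch3* differed by 0.61 (SE 0.16, adjusted p = 0.056) and *Vcam1* by 0.14 (SE 0.12). Of the genes of the 2 sort markers, *Cd34* was higher at the adjusted p alone (690, 855 and 882 against 439, 605 and 563, 0.60, SE 0.14, adjusted p = 0.031). *Itga7* was at 762, 787 and 715 against 954, 925 and 909 (−0.30, SE 0.10, adjusted p = 0.12). The MuSC sum was 15681 to 17726 in Sirt6mKO and 15523 to 18615 in control libraries. Genes of myogenic commitment had 8 tested members and 0 called by limma-trend (5 at an unadjusted p under 0.05) or by voom, with *Des* (0.59, SE 0.13, adjusted p = 0.026) and *Mef2a* (0.73, SE 0.14, adjusted p = 0.011) higher and *Myod1*, given above, lower at the adjusted p alone. Of these 8 genes, 3 were above 0 and 5 below, with a median of −0.39 and *Myog*, the differentiation factor myogenin, at 22, 58 and 139 against 137, 107 and 208 (−1.35, SE 0.48, adjusted p = 0.15). Over all lists, 94 of 150 genes were tested, and 9 rose and 1 fell past both thresholds, or 10.6% of those tested, beside 2.59% of all genes tested. The lists were chosen with earlier results of these data known, so nothing is read from this share. This count moved with single libraries, to 2 without Sirt6mKO 2, 4 without control 2 and 21 without Sirt6mKO 3.

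Other Sox genes were close to 0. *Sox15*, which is known from myoblasts, was at 2, 1 and 1 in Sirt6mKO and 2, 1 and 5 in control libraries, and *Sox30* at 2, 3 and 0 against 0, 1 and 2. Among non-coding transcripts named after Sox genes, *Sox2ot* was the most abundant at 9, 6 and 17 against 2, 4 and 5 (1.27, SE 0.50, adjusted p = 0.20). *Sox6os*, the antisense transcript at *Sox6*, was at 2, 1 and 1 against 2, 1 and 0. *Sox5it* was at 2, 6 and 2 against 9, 4 and 2, and *Sox5os3* at 0 in the Sirt6mKO libraries and at most 1 in controls.

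The nearest tested protein-coding genes around *Sox6* did not share its difference. *1110004F10Rik*, whose nearest end lies 0.601 kb away, was at 133, 122 and 129 in Sirt6mKO and 116, 127 and 86 in control libraries (0.24, SE 0.16, adjusted p = 0.49). *Plekha7*, a junction protein 84.7 kb away, differed by 0.05 (SE 0.54) and *Rps13*, a ribosomal protein gene, by −0.03 (SE 0.15). On the other side, *Cyp2r1*, an enzyme of vitamin D metabolism, was at −1.15 (SE 0.49, adjusted p = 0.23) and *Psma1*, a proteasome subunit, at −0.03 (SE 0.15). *Pde3b*, a cyclic nucleotide phosphodiesterase 932 kb away, fell at the adjusted p but short of 2-fold, from 205, 230 and 192 in controls to 133, 144 and 124 (−0.64, SE 0.13, adjusted p = 0.015).

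Likeness to *Sox6* was measured as Pearson's correlation of log2(signal + 1) over the 6 libraries, among 7393 other genes whose mean signal reached 50. The 6 points fall into the 2 groups compared and share their scaling factors with every other gene, so these correlations are a description only. The 5 genes most like *Sox6* were *Akap11* (0.994), *Dlc1* (0.991), *Hdac5* (0.990), *Eif4e3* (0.989) and *Tom1l1* (0.989). *Dlc1* had signals of 234, 356 and 297 in Sirt6mKO and 164, 122 and 158 in control libraries. *Hdac5*, a class IIa histone deacetylase, was at 134, 201 and 176 against 95, 88 and 84. In all, 52 genes had a correlation of at least 0.95 and 48 one as strong in the opposite direction, and *Sox8* stood at −0.94.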

How the data were processed

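The deposited table holds 1 value per gene and library, a signal that the authors made by dividing reads on exons by a size factor and rounding. According to the methods, reads were aligned to mm10 with STAR and counted with featureCounts, and reads on several genes or regions were left out. The submitters' processing notes name Trimmomatic 0.39, STAR 2.7.10a, featureCounts 2.0.2 and DESeq2 1.30.1, whereas the methods name other versions. The methods name RiboMinus depletion with an Ion Total RNA-Seq kit, and the labels RiboGone with a SMARTer stranded kit.

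Size factors of 0.558 to 1.37 were recovered from the gaps between occupied values, and 99.6% of low values were reached by whole reads in control 1 and in control 3. A floor of 3 reads stands for a signal of 2.19 to 5.38 and covers counting error only. A limma-trend model (limma 3.58.1, R 4.3.3) was fitted to log2(signal + 1) of the 14227 genes whose mean signal reached 5, with no other scaling. Calls needed a p of 0.05 or less after Benjamini-Hochberg adjustment and a 2-fold difference. Standard errors are those of this fit. Since the values are scaled, a test for counts was not the main test, and limma voom on recovered reads was an alternative. The procedure was tested on simulated data. Groups follow the labels, which do not say whether replicates came from separate animals, so p-values measure the spread between these samples.

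The members and all gene lists were chosen with earlier results of these data known. Genes named are the members, *Sirt6*, other Sox genes and Sox-named transcripts, the most abundant and most changed genes of each list, the 5 genes most like *Sox6* and its 3 nearest tested coding neighbours on each side, some of which are given only in counts. A list gene named outside this rule (*Myod1*, *Myf5*, *Myh7*, *Actn2*, *Acan*, *Col2a1*, *Cdh5*, *Kdr*, *Cldn5*, *Myog*, *Pygm*, *Myh1*, *Ckm*, *Tnni2*, *Cd34*, *Itga7*) was chosen after its values were seen. Exon lengths, positions and sequences came from GENCODE M21, in which 99.7% of identifiers were found. The box was located by a script as the open reading frame with its conserved motif. Python 3.11.15 with numpy 2.4.6, pandas 2.3.3, matplotlib 3.10.9 and Biopython 1.88 was used. Alternatives were 3 other scalings, filters, pseudocounts of 0.1 and 5, a block for the replicate number, robust variance estimates, calls by adjusted p without a fold, limma voom and leaving out each library.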

Additional observations from a re-analysis of the deposited data

How the results depend on the processing

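Of 141 recomputed log2 differences of Sox genes, 140 stayed within the spread between replicates of the value given, 0 reversed among called genes, and 1 moved further, *Sox7* to 3.70 with a pseudocount of 0.1. The spread is that of each gene itself and is wide for variable genes. *Sox11*, between 0.22 and 0.97, and *Sox12*, between −0.25 and 0.04, thus stayed within it, so the 140 do not show that each value was stable. The count of Sox genes past both thresholds was 2 and ranged from 2 to 4 as 1 library was left out, with *Sox7* and *Sox13* added without control 1, and it was 3 with a pseudocount of 5, which added *Sox13*. Over all genes, 223 were higher and 145 lower. With a mean signal of at least 50 these were 76 and 52, with an adjusted p alone 376 and 267, and with 1 library left out 97 to 291 and 84 to 152, the fewest higher without Sirt6mKO 2 and the fewest lower without Sirt6mKO 1. Without Sirt6mKO 2, 50.3% of calls were higher, against 60.6% with all libraries. Limma voom on recovered reads called 215 and 156. The list genes past both thresholds numbered 10, and 6 without a filter, 1 with a mean of at least 50, 5 with voom, 19 with an adjusted p alone, and 2 to 21 with 1 library left out. With the replicate number as a block they numbered 19, with 268 genes higher, 167 lower and the same 2 Sox genes. Deviations of equally numbered libraries correlated at 0.02, 0.07 and 0.19, so the numbers were not taken to pair samples. The causes of these moves were not tested. Depth limits *Sox7* and *Sox13*, whose libraries hold at most 29 reads.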
